A study of Mus musculus with 6 samples.

Results

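Cell cycle and mitosis genes were followed in mouse skin of the MC903 model. MC903 is a vitamin D analogue that, put on the skin, causes inflammation resembling atopic dermatitis. The group comprised 40 genes, taken by symbol from a list drawn up with earlier results of these data known, of 18824 in the deposited table. Of these, 16 act at the start of replication or in DNA synthesis and are called S-phase genes, and 24 act from late S phase to cell division and are called G2/M genes. The 6 libraries came from skin of C57BL/6j mice and formed 2 groups of 3, called CCR3 and VEH in the titles and each numbered 1, 2 and 4. VEH skin received vehicle. For CCR3 skin the series gives SB328437, which blocks the chemokine receptor CCR3, whereas the treatment label of the libraries gives SC144, which inhibits the receptor subunit gp130, so the compound is not certain. By the series title both groups belong to the MC903 model, and skin without MC903 was not analysed here. The sources used here do not give age, sex, dose or whether each library came from 1 mouse, and p-values therefore measure only the spread between these samples, which may be technical.

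In a dividing cell, transcription factors of the E2F family switch on genes that license origins, unwind DNA and make nucleotides, and a later wave, driven through MYB-related and FOXM1 complexes, switches on cyclin B, the mitotic kinases and the parts of the spindle and kinetochore. RNA of the later wave builds up before mitosis and falls off after it. In skin the basal layer of the epidermis and the hair matrix hold most dividing cells, and leukocytes recruited to inflamed skin can divide as well. In bulk tissue, fewer dividing cells and less RNA per dividing cell cannot be told apart.

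Values were FPKM, which scale reads to transcript length and to the library, with a sum of 517764 to 553305 per library and an unknown depth. The defining keratinocyte keratins were abundant in both groups, with mean levels of Krt14 of 4915 ± 682 FPKM for CCR3 against 4499 ± 431 FPKM for VEH (SD, n = 3 each). Each of the 40 genes reached 1 FPKM in every library, so all of them passed the filter on low values and were tested. Mean levels over the 6 libraries ran from 1.43 FPKM for Cdc6, a loader of the replicative helicase, to 128.3 FPKM for Pcna, the sliding clamp of the replication fork. Among G2/M genes Cenpa was highest at 36.0 FPKM and Cenpf lowest at 2.84 FPKM.

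Proliferation genes differed little between the groups. Of the 40 genes 1 fell in CCR3, the centromeric histone gene Cenpa, and none rose (limma with Benjamini-Hochberg adjustment over 13063 tested genes). That share is 2.5%, against 3.74% of all tested genes called in either direction. Genes called higher in CCR3 made up 1.36% of all tested genes and genes called lower 2.37%. At an unadjusted p under 0.05 there were 7 of the 40, or 17.5%, against 23.1% of tested genes. These were 3 higher (Mcm2, Mcm5 and Mcm6) and 4 lower (Cenpa, Ube2c, Ccnb2 and Kif23), against 8.03% and 15.1% of tested genes. The 95% interval of the difference lay within 1 on the log2 scale (a 2-fold change) for all 40 genes and within 0.5 for 39, with Cenpa as the exception. Only 2 of the 40 genes, Cenpa and Ube2c, had a log2 fold change of at least 0.25 in either direction, or 5%, against 18.5% of tested genes. Log2 fold changes are given as CCR3 minus VEH on the log2(FPKM + 1) scale throughout, which understates the change of genes near the floor.

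**Figure D1:**
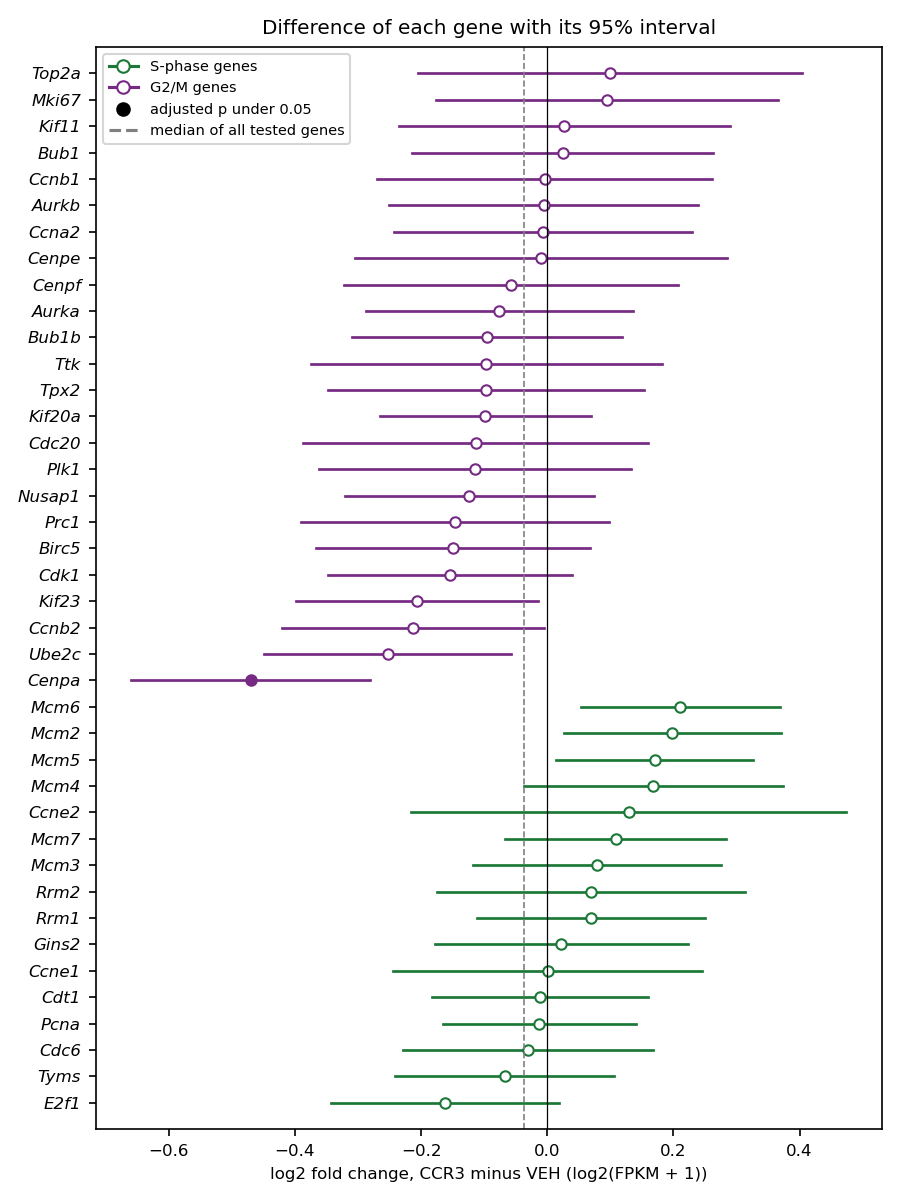
Log2 fold change of CCR3 against VEH (horizontal axis, log2(FPKM + 1)) for each of the 40 genes, with the 95% interval from limma as a line, G2/M genes in purple and S-phase genes in green; filled points passed an adjusted p of 0.05 and the dashed line is the median of all tested genes. Cenpa at -0.47 is the sole filled point, and the Mcm genes lie at the upper end of the S-phase genes, with Ccne2 among them.

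Cenpa encodes the histone H3 variant that replaces H3 in centromeric nucleosomes and on which the kinetochore is built. It stood at 30.39, 27.32 and 32.41 FPKM in CCR3 replicates 1, 2 and 4 and at 41.8, 39.18 and 44.86 FPKM in VEH replicates 1, 2 and 4. All 3 CCR3 values lay below all 3 VEH values, with a gap of 6.77 FPKM between the groups. Means were 30.0 ± 2.56 against 42.0 ± 2.84 FPKM (SD, n = 3 each), a ratio of 0.716 and a log2 fold change of -0.47 ± 0.082 (SE, limma adjusted p = 0.0258). The log2 fold change stayed between -0.52 and -0.41 when each library was left out in turn, but the call did not hold without CCR3 replicate 1 (adjusted p = 0.0819), VEH replicate 1 (0.118), VEH replicate 2 (0.0578) or VEH replicate 4 (0.12), or with no filter on low values (0.052).

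Genes for 2 factors that help place the Cenpa protein at centromeres did not pass the test. Hjurp, its chaperone, had means of 22.6 ± 0.855 FPKM (CCR3) and 22.2 ± 1.09 FPKM (VEH), with a log2 fold change of 0.03 (adjusted p = 0.837). Oip5, of the complex that licenses its deposition, had a log2 fold change of 0.02 and did not pass either. Exons of Oip5 overlap those of Nusap1 on the opposite strand. The kinetochore motor gene Cenpe was at 3.34 against 3.39 FPKM and Cenpf, a large kinetochore protein gene, at 2.76 against 2.93 FPKM, and neither passed (log2 fold changes -0.01 and -0.06).

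Of the genes of the anaphase-promoting complex (APC/C) and of the spindle checkpoint none passed. Ube2c, the ubiquitin-conjugating enzyme that works with the APC/C, stood at 25.92, 25.09 and 22.22 FPKM in CCR3 replicates 1, 2 and 4 and at 27.99, 32.15 and 27.7 FPKM in VEH. The groups did not overlap, yet the gene did not pass, with a log2 fold change of -0.25 ± 0.085 (SE, adjusted p = 0.136). Its exons overlap those of Tnnc2, a muscle troponin gene on the opposite strand, and since no strand information is given reads of the pair could not be told apart. Cdc20, which activates the APC/C, was at 15.7 ± 1.49 against 17.1 ± 2.90 FPKM with a 95% interval of -0.39 to 0.16 for the log2 difference. The checkpoint kinase genes Bub1, Bub1b and Ttk had log2 fold changes of 0.02, -0.10 and -0.10, and none passed.

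The cyclins and the kinase of mitotic entry did not pass either. Ccnb2, for cyclin B2, was at 12.88, 14.35 and 14.45 FPKM in CCR3 replicates 1, 2 and 4 and at 16.17, 18.18 and 14.57 FPKM in VEH, so that the highest CCR3 value and the lowest VEH value nearly touched (log2 fold change -0.21 ± 0.090 SE, adjusted p = 0.207). Ccnb1, for cyclin B1, was at 21.51, 22.15 and 18.48 FPKM in CCR3 and at 19.33, 24.68 and 18.61 FPKM in VEH, with the VEH values spanning nearly all of the CCR3 values and a 95% interval of -0.27 to 0.26 for the log2 difference. Ccna2, for cyclin A2, was at 16.7 ± 0.699 against 16.9 ± 2.60 FPKM, and Cdk1, the kinase these cyclins activate, at 10.4 ± 0.540 against 11.7 ± 1.20 FPKM. Ccnb1 and Ccnb2 each have a named pseudogene, so the origin of their reads is uncertain, and Ccna2 overlaps Exosc9 on the opposite strand.

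None of the genes of the mitotic kinases and of the spindle passed. Plk1, Aurka and Aurkb, the kinases of mitotic entry, spindle poles and chromosome attachment, had log2 fold changes of -0.11, -0.08 and -0.01. Birc5, for survivin, the partner of Aurora B in the chromosomal passenger complex, was at 21.2 ± 1.19 against 23.7 ± 3.04 FPKM (log2 fold change -0.15). Kif23, a kinesin of the central spindle needed for cytokinesis, was at 6.08, 5.78 and 6.33 FPKM in CCR3 replicates 1, 2 and 4 and at 7.53, 7.6 and 6.36 FPKM in VEH. Its groups were thus separated by 0.03 FPKM, and it did not pass (log2 fold change -0.21, adjusted p = 0.19). Kif11, the motor that pushes spindle poles apart, Kif20a and Prc1 of the central spindle, the Aurora A activator Tpx2 and the microtubule binder Nusap1 had log2 fold changes of 0.03, -0.10, -0.15, -0.10 and -0.12, all short of the threshold.

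The genes most used to mark dividing cells had small positive log2 fold changes that turned negative without VEH replicate 4 (-0.022 for Mki67 and -0.013 for Top2a). Mki67, whose product coats mitotic chromosomes, was at 17.04, 17.6 and 15.47 FPKM in CCR3 replicates 1, 2 and 4 and at 15.44, 18.6 and 13.09 FPKM in VEH. Top2a, the topoisomerase that untangles sister chromatids, was at 30.81, 30.94 and 25.41 FPKM in CCR3 and at 26.03, 32.76 and 22.9 FPKM in VEH. For each gene VEH replicate 2 was the highest of the 6 libraries and VEH replicate 4 the lowest, so the VEH values enclosed the CCR3 values. Log2 fold changes were 0.09 (95% interval -0.18 to 0.37) and 0.10 (-0.20 to 0.40), with adjusted p of 0.657 and 0.678 in limma.

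**Figure D2:**
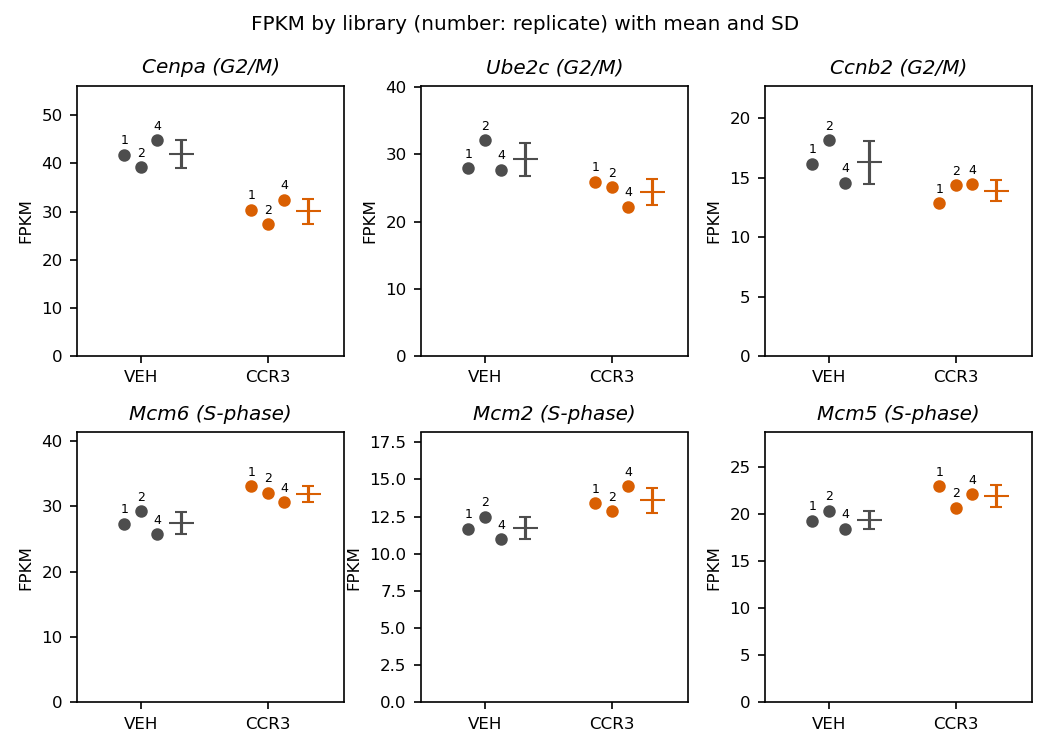
FPKM (vertical axis, from 0) by group for the 3 G2/M genes (top) and the 3 S-phase genes (bottom) with the largest log2 fold changes, each point a library with its replicate number, and the mean with SD (n = 3) beside it. CCR3 is lower for Cenpa, Ube2c and Ccnb2 and higher for Mcm6, Mcm2 and Mcm5, and Cenpa alone passed the test. The groups do not overlap for any of the 6 genes, which were picked by the size of their difference. Groups did not overlap for 28.6% of all tested genes.

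Among S-phase genes the subunits of the replicative helicase all had a positive sign, which 5 of the other 10 S-phase genes had as well. Mcm2 to Mcm7 form the ring that is loaded at origins and then unwinds DNA, and the log2 fold changes of these 6 genes were positive throughout, between 0.08 and 0.21, with a median of 0.17. None passed, and positive values were found for 40.2% of tested genes. Mcm6 was at 33.01, 32.04 and 30.63 FPKM in CCR3 replicates 1, 2 and 4 and at 27.32, 29.24 and 25.75 FPKM in VEH (log2 fold change 0.21 ± 0.068 SE, adjusted p = 0.124). Mcm2 was at 13.41, 12.86 and 14.52 FPKM in CCR3 and at 11.67, 12.5 and 10.99 FPKM in VEH (0.20 ± 0.075, adjusted p = 0.167). Mcm5 was at 22.89, 20.65 and 22.08 FPKM in CCR3 and at 19.24, 20.31 and 18.41 FPKM in VEH (0.17 ± 0.068, adjusted p = 0.185). In these 3 genes every CCR3 library was above every VEH library, by 0.36 FPKM for Mcm2, 0.34 FPKM for Mcm5 and 1.39 FPKM for Mcm6. The same held for 10.4% of all tested genes, and these 3 had the largest log2 fold changes of the S-phase genes. Mcm4, Mcm7 and Mcm3 overlapped between the groups, with log2 fold changes of 0.17, 0.11 and 0.08. All 6 signs stayed positive, and none of the 6 genes was called, under both rescalings of the libraries and when each library was left out in turn. The rescalings could not turn these signs, since they raised all 6 log2 fold changes by nearly the same amount. The median of the 6 became 0.20 under each rescaling. The sizes moved, and without VEH replicate 4 the log2 fold change was 0.015 for Mcm3, 0.079 for Mcm4 and 0.063 for Mcm7, against 0.13, 0.25 and 0.18 without VEH replicate 2. Exons of Mcm7 overlap those of Ap4m1 and Cops6 on the opposite strand, and such overlaps also touch Cdc20 (Elovl1), Kif20a (Cdc23), Prc1 (Rccd1), Gins2 (Gse1) and Ccne2 (Ints8).

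The factors that load the helicase and the other S-phase genes were mixed in sign. Cdc6 and Cdt1, which load the Mcm ring, had log2 fold changes of -0.03 and -0.01, and Gins2, of the complex that activates it, had 0.02. Pcna was at 136.21, 124.41 and 122.87 FPKM in CCR3 replicates 1, 2 and 4 and at 127.03, 127.83 and 131.54 FPKM in VEH, so the CCR3 values enclosed the VEH values, with a 95% interval of -0.17 to 0.14 for the log2 difference. Pcna and Tyms have named pseudogenes, which makes the origin of some of their reads uncertain. For nucleotide supply, the ribonucleotide reductase genes Rrm1 and Rrm2 had log2 fold changes of 0.07 each and the thymidylate synthase gene Tyms -0.07. Of the genes of the G1/S switch, E2f1 was at 5.68, 4.88 and 5.77 FPKM in CCR3 and at 6.17, 6.37 and 6.05 FPKM in VEH, without overlap but short of the threshold (log2 fold change -0.16, adjusted p = 0.255). The cyclin E genes Ccne1 and Ccne2 had log2 fold changes of 0.00085 and 0.13, and Ccne2 had the widest interval of the 40 genes, from -0.22 to 0.47.

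Set side by side, S-phase and G2/M genes leaned in different directions by small amounts. Positive log2 fold changes were found in 11 of 16 S-phase genes (68.8%) and in 4 of 24 G2/M genes (16.7%), against 40.2% of tested genes. The median was 0.07 for S-phase genes, -0.10 for G2/M genes and -0.04 for all tested genes, which gave a difference of 0.17 between the classes. Without the 6 Mcm genes the S-phase median was -0.01, with 5 positive and 5 negative. Groups did not overlap for 4 S-phase genes, 3 higher and 1 lower, and for 4 G2/M genes, all lower. These are 20% of the 40 genes, against 28.6% of tested genes, with 10.4% higher and 18.3% lower. No test was made of the difference between the classes, since the genes of a class share the same libraries.

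Library by library, the class medians overlapped between the groups. The S-phase median, as log2 relative to the VEH mean, was 0.10, -0.0011 and 0.07 in CCR3 replicates 1, 2 and 4 and -0.01, 0.09 and -0.07 in VEH replicates 1, 2 and 4. The G2/M median was -0.09, -0.04 and -0.13 in CCR3 and -0.04, 0.19 and -0.15 in VEH. In G2/M genes VEH replicate 4 lay below the CCR3 libraries, VEH replicate 1 just above them and VEH replicate 2 well above them. The S-phase median minus the G2/M median was 0.19, 0.04 and 0.20 in CCR3 and 0.02, -0.10 and 0.07 in VEH, so CCR3 replicate 2 fell among the VEH libraries. The pooled SD between libraries of a group was 0.091 for that difference, 0.069 for the S-phase median and 0.13 for the G2/M median.

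**Figure D3:**
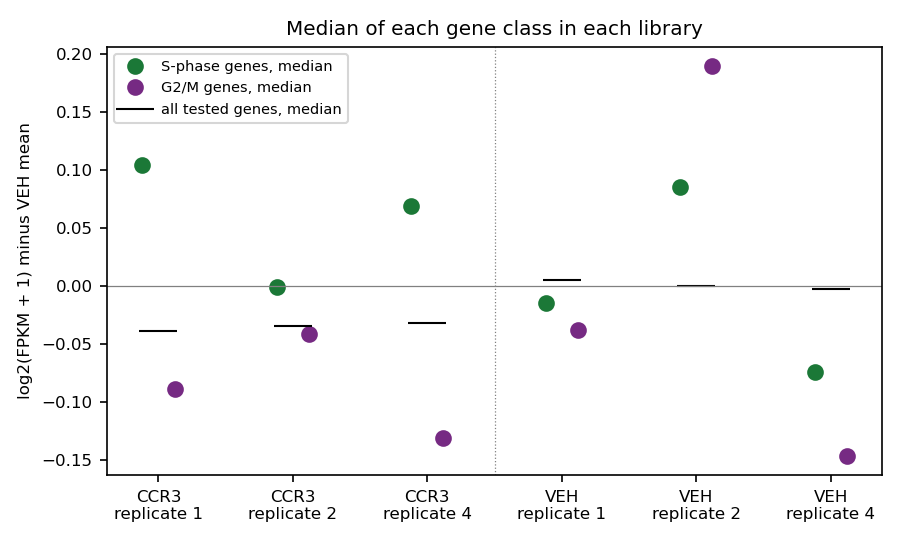
Median of the 16 S-phase genes (green) and of the 24 G2/M genes (purple) in each library, as log2(FPKM + 1) minus the VEH mean (vertical axis), with the median of all tested genes as a black dash. VEH replicate 2 has the highest G2/M median at 0.19 and VEH replicate 4 the lowest at -0.15, with the 3 CCR3 libraries between them.

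VEH replicate 2 was the library with the highest value in 23 of the 24 G2/M genes, and Cenpa, highest in VEH replicate 4, was the exception. The same library was highest in 6 of the 16 S-phase genes and in 14.7% of all tested genes. VEH replicate 4 was the lowest of the 6 libraries in 9 G2/M and 8 S-phase genes, against 18.1% of tested genes. The spread within VEH was accordingly wide for G2/M genes, with a median coefficient of variation of 13.1%, compared with 7.31% for S-phase genes and 6.27% for all tested genes. In CCR3 the figures were 7.28%, 7.56% and 8.52%. Without VEH replicate 2 the median log2 fold change of G2/M genes was -0.0046, with 12 of 24 negative. Without VEH replicate 4 it was -0.16, with 24 of 24 negative. The S-phase median was 0.13 without VEH replicate 2 and 0.01 without VEH replicate 4, with 12 and 10 of 16 positive. The lean of each class thus depended on which VEH libraries entered, whereas the difference between the class medians ran from 0.11 to 0.20 with each library left out in turn.

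**Figure D4:**
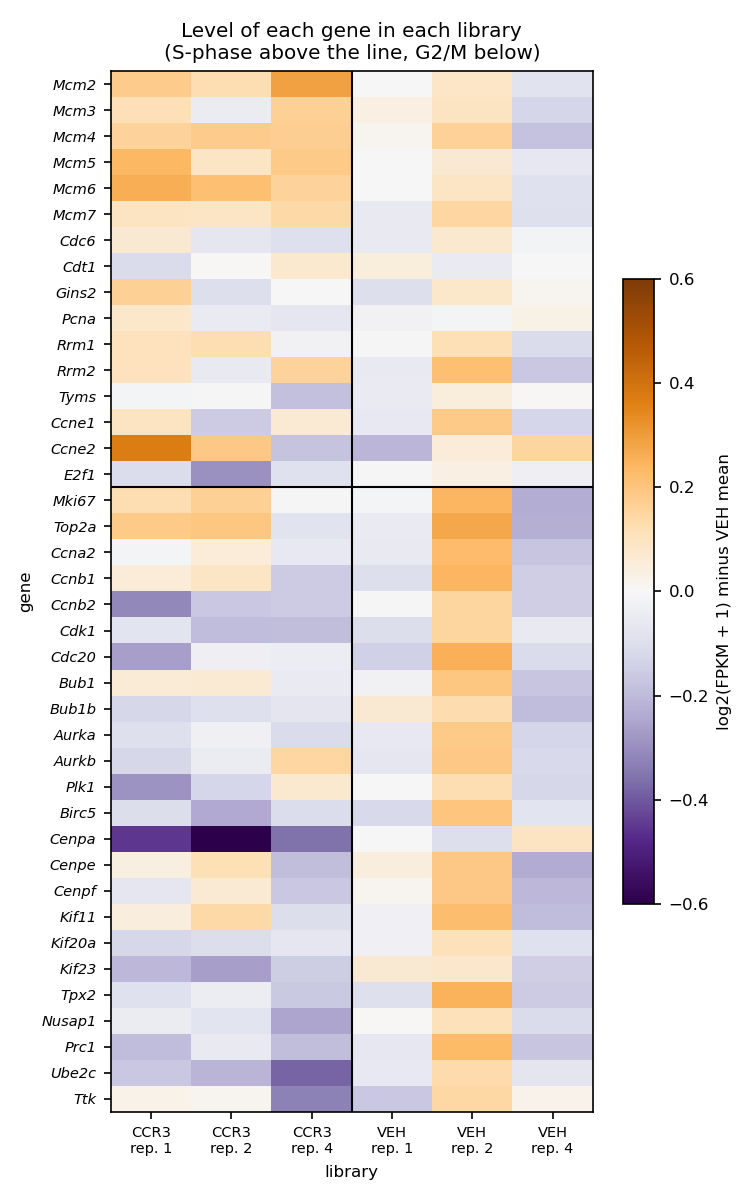
Level of each of the 40 genes (rows, S-phase above the line) in each library (columns) as log2(FPKM + 1) minus the VEH mean, from purple (lower) to orange (higher). VEH replicate 2 is orange for 23 of 24 G2/M genes, Cenpa is purple in the 3 CCR3 libraries, and the Mcm rows at the top are mostly orange in CCR3.

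Promoters of the genes that led each class are printed because the waves of the cell cycle are known by short promoter words. E2F factors bind a word whose core was searched here as TTCCCGC, as TTGGCGC, as TTCGCGC and as TTGCCGC. The cell cycle homology region (CHR) of G2/M genes reads TTTGAA or TTCGAA and is bound by the MYB-related complexes, often downstream of CCAAT boxes, which bind NF-Y. RefSeq promoter windows of the build GRCm38.p6, from 250 bases before to 50 after the annotated start, were found for 33 of the 40 genes and searched on both strands. Ccna2, Aurkb, Kif20a, Tpx2, Mcm4, Gins2 and Ccne2 had no entry. The 250 bases before the start are shown 5′ to 3′ on the strand of the gene for the 3 genes of each class with the largest log2 fold changes, with E2F, CHR and CCAAT words of either strand in capitals.
Cenpa (chr5:30666636-30666885, + strand): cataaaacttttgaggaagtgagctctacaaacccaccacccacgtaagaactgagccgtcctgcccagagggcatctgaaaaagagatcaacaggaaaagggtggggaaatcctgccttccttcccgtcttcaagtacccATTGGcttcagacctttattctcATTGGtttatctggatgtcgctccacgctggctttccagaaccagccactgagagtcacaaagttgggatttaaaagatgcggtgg
Ube2c (chr2:164769679-164769928, + strand): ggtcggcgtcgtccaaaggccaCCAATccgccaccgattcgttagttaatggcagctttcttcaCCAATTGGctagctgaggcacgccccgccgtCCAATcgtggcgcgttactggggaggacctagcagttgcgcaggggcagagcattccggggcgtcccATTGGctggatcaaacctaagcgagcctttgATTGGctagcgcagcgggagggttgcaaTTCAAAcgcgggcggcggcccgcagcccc
Ccnb2 (chr9:70421555-70421804, - strand): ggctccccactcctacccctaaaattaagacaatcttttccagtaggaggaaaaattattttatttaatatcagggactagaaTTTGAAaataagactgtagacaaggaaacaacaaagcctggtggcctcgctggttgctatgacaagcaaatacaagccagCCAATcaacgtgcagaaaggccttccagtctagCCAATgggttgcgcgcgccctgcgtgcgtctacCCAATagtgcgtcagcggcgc
Mcm6 (chr1:128359706-128359955, - strand): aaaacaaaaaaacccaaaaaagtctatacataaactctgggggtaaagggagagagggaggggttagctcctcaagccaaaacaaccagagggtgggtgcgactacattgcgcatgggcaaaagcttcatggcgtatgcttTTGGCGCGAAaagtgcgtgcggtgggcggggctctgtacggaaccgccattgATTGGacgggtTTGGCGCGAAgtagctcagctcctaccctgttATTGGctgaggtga
Mcm2 (chr6:88898781-88899030, - strand): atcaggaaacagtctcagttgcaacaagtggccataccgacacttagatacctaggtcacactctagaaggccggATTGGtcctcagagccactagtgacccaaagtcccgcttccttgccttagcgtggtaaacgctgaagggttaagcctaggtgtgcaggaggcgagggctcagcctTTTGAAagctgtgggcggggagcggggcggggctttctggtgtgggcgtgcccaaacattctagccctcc
Mcm5 (chr8:75109259-75109508, + strand): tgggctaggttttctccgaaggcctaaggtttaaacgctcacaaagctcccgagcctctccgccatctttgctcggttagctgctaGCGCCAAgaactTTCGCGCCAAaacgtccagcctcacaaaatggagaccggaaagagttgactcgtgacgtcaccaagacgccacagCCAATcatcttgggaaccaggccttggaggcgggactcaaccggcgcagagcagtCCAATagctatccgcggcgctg

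An E2F core was present in 9 of 14 windows of S-phase genes (64.3%), in 3 of 21 windows of G2/M genes (14.3%) and in 9.57% of all 32851 promoter windows. A CHR word was present in 17 of 21 windows of G2/M genes (81%), in 2 of 14 of S-phase genes (14.3%) and in 19.2% of all windows. CCAAT was present in 19 of 21 windows of G2/M genes (90.5%), 9 of 14 of S-phase genes (64.3%) and 37.4% of all windows. CHR and CCAAT occurred together in 17 of 21, 2 of 14 and 7.52%. Among the printed promoters, Ube2c had 6 CCAAT words, of which a pair on opposite strands shares bases, and a CHR word that starts 29 bases before the start. Cenpa had 2 CCAAT words and a CHR word that begins at base 17 after the start, outside the printed stretch, and Ccnb2 had 3 CCAAT words and a CHR word before the start and another CHR word at base 5 after it. Mcm6 had 4 overlapping E2F cores before the start, in 2 pairs of opposite strand, and Mcm5 had 3. Mcm2 had no E2F core in its window but had a CHR word 70 bases before the start. These matches describe the letters of the windows and were not tied to the levels of the genes.

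Other genes of the cell cycle were counted by list. Across 9 lists with 203 genes, 199 were tested, and 3 of these passed, all higher in CCR3 (1.51%, against 3.74% of tested genes). Of these, 2 belong to the list of p53 and growth arrest genes (11.1% of its tested genes). Trp53inp1, a p53-induced gene of stress and autophagy, stood at 25.93, 23.56 and 26.89 FPKM in CCR3 replicates 1, 2 and 4 and at 12.69, 10.89 and 10.69 FPKM in VEH (log2 fold change 1.09 ± 0.085 SE, adjusted p = 0.00182). Gadd45g, a stress-induced gene of growth arrest, stood at 20.27, 27.6 and 28.94 FPKM in CCR3 and at 11.58, 13.69 and 13.65 FPKM in VEH (0.92 ± 0.133, adjusted p = 0.0138). In both genes the lowest CCR3 value was well above the highest VEH value. Trp53inp1 passed without each library in turn (adjusted p up to 0.0151), while Gadd45g lost its call without VEH replicate 1 (0.0757) or VEH replicate 4 (0.0715).

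The other 16 genes of the p53 list did not pass (median -0.04 over all 18), and Trp53 itself was at 26.8 ± 2.13 against 29.2 ± 1.39 FPKM. At an unadjusted limma p under 0.05, 2 genes of the list were higher and 3 lower. The lower genes were Bax, Mdm2 and Ccng1, at log2 fold changes of -0.23, -0.16 and -0.15. Of the 19 tested genes of G1 cyclins, kinases and inhibitors 1 passed. That gene was Wee1, whose kinase holds Cdk1 inactive, at 6.69, 7.59 and 7.57 FPKM in CCR3 replicates 1, 2 and 4 and at 5.81, 5.02 and 4.52 FPKM in VEH (log2 fold change 0.44 ± 0.095 SE, adjusted p = 0.0464). Its groups did not overlap, but the call was lost without each library in turn other than CCR3 replicate 4 (adjusted p up to 0.165) and with libraries scaled to the same sum (0.061), with no filter (0.0994) or with a replicate block (0.0955). At an unadjusted limma p under 0.05, 2 genes of this G1 list were higher and 2 lower, against 8.03% and 15.1% of tested genes. The higher genes were Wee1 and Cdk6 (log2 fold change 0.35), and the lower genes Ccnd2 (-0.22) and Cdkn2c (-0.23). Ccnd1, the cyclin D1 gene, and the inhibitor genes Cdkn1a and Cdkn1b had log2 fold changes of -0.12, 0.07 and 0.10.

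None of the genes in the other 7 lists passed. Of 20 RB, E2F, DREAM, MYB and FOXM1 regulators 13 were positive (median 0.04), and Foxm1 and Mybl2, which drive the later wave, had log2 fold changes of 0.04 and 0.05. E2f2 and Tfdp2 had the smallest p of that list, at -0.22 and 0.25. Of 19 genes of origin licensing and firing 8 were positive (median -0.03), led by Orc1 and Ticrr at 0.23 each. Of 27 genes of replication forks and nucleotides 13 were positive (median -0.01), with Rfc2, a clamp loader gene, at -0.25 and the maintenance methyltransferase gene Dnmt1 at 0.25. Kinetochore and passenger genes were positive in 9 of 31 (median -0.05), led by Ska2 and Spc25 at -0.27 and -0.21. Other kinesin, spindle and cytokinesis genes were positive in 7 of 25 (median -0.05), with Kif18b at 0.20 and Ckap2 at -0.18. Cohesin, condensin and separase genes were positive in 10 of 20 (median 0.04), led by Pttg1, for securin, at -0.22 and Ncapg at -0.19. APC/C and SCF ligase genes were positive in 4 of 20 (median -0.10), led by Cdc16 at -0.19 and Anapc11 at -0.21.

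**Figure D5:**
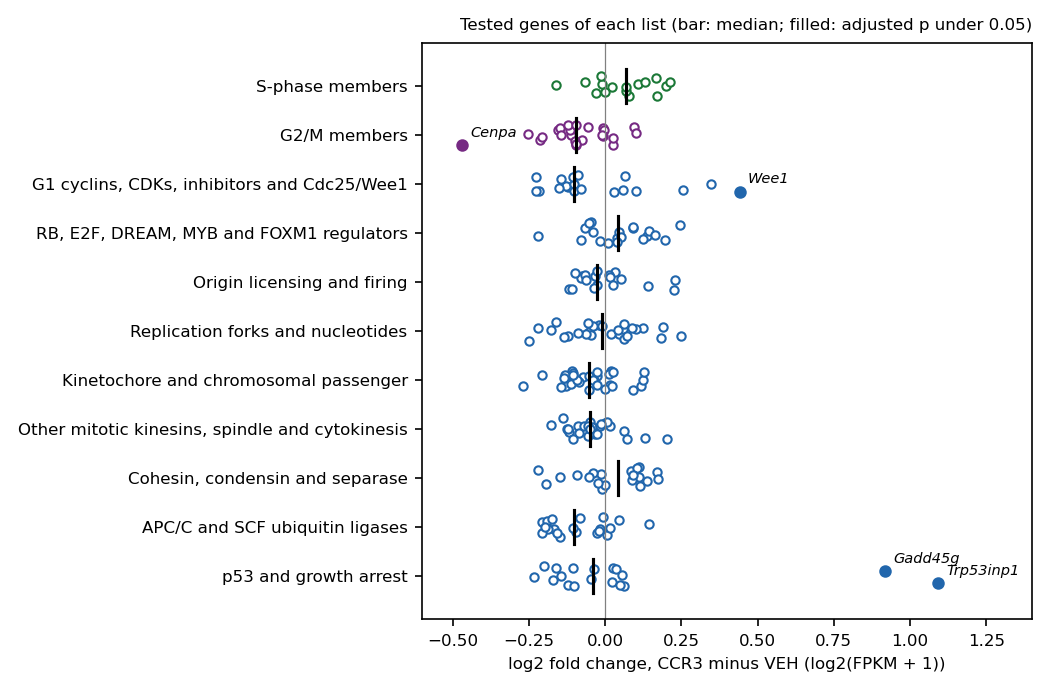
Log2 fold change of CCR3 against VEH (horizontal axis, log2(FPKM + 1)) of each tested gene in the 2 classes and in 9 other lists, with the median of each list as a black bar and filled points for an adjusted p under 0.05. Cenpa, Wee1, Gadd45g and Trp53inp1 are the filled points, and the list medians lie between -0.10 and 0.07.

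Markers of cell types that can hold dividing cells were counted beside these genes. Of all tested genes 40.2% were positive, 3.74% were called in either direction and 2.37% were called lower. All 10 basal keratinocyte markers had positive log2 fold changes (median 0.25), none passed, and their summed level was 5150 to 6981 FPKM in CCR3 and 5102 to 6118 FPKM in VEH. Most of that sum was Krt14, with means of 4915 and 4499 FPKM. Of 6 tested hair matrix markers 5 were positive (median 0.40), Lef1 was negative (-0.19) and none passed. Their sums were 24.3 to 31.5 FPKM in CCR3 against 20.3 to 21.6 FPKM in VEH over 9 of 10 listed genes. Shh, Krt35 and Krt31 were near 0, with means of 0.0067, 0.083 and 0.030 FPKM in CCR3 and 0.0067, 0.073 and 0.083 FPKM in VEH. They were not tested, so the median does not cover them. Shh and Krt31 were listed at 0 in at least 1 library. All 9 tested T cell markers were negative (median -0.46) and 3 fell, Cd3g, Cd4 and Cd28, at a summed level of 33.7 to 47.7 FPKM in CCR3 and 57.4 to 61.7 FPKM in VEH, with none at 0 in any library. Macrophage and monocyte markers were negative in 9 of 11 (median -0.20), none passed, and their sums overlapped at 1519 to 2034 and 1770 to 1992 FPKM. Among the VEH libraries replicate 2 had the highest medians of basal keratinocyte (0.14, against -0.05 and -0.11), of hyperproliferative epidermis (0.23, against -0.10 and -0.11) and of neutrophil markers (0.15, against -0.09 and -0.13), as it had of G2/M genes. S100a8 and S100a9 belong to both the hyperproliferative epidermis and the neutrophil list, so those medians share genes. Hair matrix and endothelial markers were also highest in VEH replicate 2, with medians of 0.05 and 0.06. T cell, macrophage and dendritic cell markers were instead highest, among the VEH libraries, in replicate 1 (0.05, 0.06 and 0.08). So were suprabasal keratinocyte and fibroblast markers (0.03 each), and each of these last lists had a negative median in VEH replicate 2. Over the 6 libraries basal keratinocyte markers were highest in CCR3 replicate 2 (0.49), where the G2/M median was -0.04. The part of these cell types in the levels of the cell cycle genes was not tested.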

How the data were processed

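Skin mRNA was captured on oligo(dT) beads for 6 libraries, which were sequenced from a single end (50 bases), per the labels' protocols. The submitters' processing notes name HISAT as a tool. No version, genome build, annotation or counting tool is given by the sources used here. FPKM of 18824 genes in each library were deposited by the authors as 1 table. Among 380 low values of 154 genes 24.2% were whole multiples, within 0.05, of the smallest value of their gene, against 10% by chance, so read numbers could not be recovered and depth is unknown. Groups and replicate numbers came from the titles.

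Values were transformed to log2(FPKM + 1). Genes reaching 1 FPKM in 3 or more libraries, 13063 in all, were compared with limma 3.58.1 (R 4.3.3) with a variance trend, 2-sided, with Benjamini-Hochberg adjustment over all tested genes at 0.05. The steps were tested on simulated data, with planted log2 differences larger than any seen for the 40 genes. Whether smaller differences can be called was not tested. Sequences were searched in Python 3.11.15 and plots drawn with matplotlib 3.10.9. Opposite-strand overlaps were taken from GENCODE M21 and pseudogene names from RefSeq GRCm38.p6, by name.

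The 40 genes and all lists were chosen with earlier results of these data known. Genes given library by library are those past the threshold, the 3 with the largest log2 fold change and the most abundant in each class, and others chosen after their values were seen. From other lists the genes past the threshold are named, or the 2 with the smallest p. Others were chosen after values were seen (Hjurp, Oip5, Foxm1, Mybl2, Trp53, Bax, Mdm2, Ccng1, Ccnd1, Ccnd2, Cdk6, Cdkn1a, Cdkn1b, Cdkn2c, Krt14, Krt35, Lef1). Of 203 genes in 9 pathway lists and 89 in 10 marker lists, 2 were not found and 1 was found under another symbol. S100a8 and S100a9 are counted in both the hyperproliferative epidermis and the neutrophil list. Marker lists whose log2 fold changes are not given above had medians of 0.28 (suprabasal keratinocytes, 9 tested, none passing) and 0.24 (neutrophils, 7 tested, none passing). Medians were -0.07 for dendritic cells (7 tested, 1 lower), -0.11 for fibroblasts (8 tested, 1 lower) and -0.13 for endothelium (7 tested, 2 lower). Hyperproliferative epidermis had 0.20 (7 tested, none passing). Alternatives were log values centred on library medians, libraries scaled to the same sum, a replicate block, no filter, a stricter filter (3 FPKM), a smaller pseudocount (0.1), a robust variance trend, an adjusted p under 0.1 and each library left out in turn. A result on 1 further gene is not reported here.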

Additional observations from a re-analysis of the deposited data

How the results depend on the processing

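The number of genes called over the whole table was 488, and it was 220 with no filter, 233 with a replicate block, 1162 at an adjusted p under 0.1 and 74 to 1638 with each library left out in turn (138, 318 and 1638 without CCR3 replicate 1, 2 or 4, and 74, 115 and 74 without VEH replicate 1, 2 or 4). Of the 40 genes 1 was called (Cenpa) under every setting except no filter and leaving out CCR3 replicate 1 or any of the VEH libraries, which gave 0, so the range over left-out libraries was 0 to 1. The replicate block kept Cenpa past the threshold (adjusted p = 0.0383) and took Wee1 below it (0.0955); equal numbers share nothing in the labels, and deviations of equal-numbered libraries correlated at -0.064, 0.084 and -0.030. The median of all tested genes was -0.04, and -0.0069 with median-centred and -0.0083 with sum-scaled libraries, under which G2/M genes were negative in 16 of 24 each and S-phase genes positive in 14 and 13 of 16. The share of higher genes among all calls moved from 36.5% (178 higher, 310 lower) to 46.8% (230 and 261) and 47.7% (158 and 173). Signs of genes with small log2 fold changes, up to the size of Cdc20 at -0.11, changed with no call on either side. With median-centred libraries the log2 fold changes became 7.2e-05 for Cdc6, 0.019 for Cdt1, 0.018 for Pcna, 0.023 for Ccna2, 0.026 for Ccnb1, 0.025 for Aurkb and 0.021 for Cenpe, and with sum-scaled libraries 0.018 for Cdt1, 0.020 for Pcna, 0.023 for Ccna2, 0.027 for Ccnb1, 0.024 for Aurkb and 0.015 for Cenpe. With each library left out in turn they ran from -0.080 to 0.0064 for Cdc6, from -0.054 to 0.039 for Cdt1, from -0.049 to 0.082 for Gins2, from -0.058 to 0.015 for Pcna, from -0.013 to 0.18 for Rrm2, from -0.063 to 0.094 for Ccne1, from -0.022 to 0.22 for Mki67, from -0.013 to 0.24 for Top2a, from -0.093 to 0.11 for Ccna2, from -0.078 to 0.12 for Ccnb1, from -0.19 to 0.015 for Cdc20, from -0.061 to 0.12 for Bub1, from -0.14 to 0.017 for Aurka, from -0.084 to 0.089 for Aurkb, from -0.13 to 0.086 for Cenpe, from -0.16 to 0.038 for Cenpf, from -0.070 to 0.14 for Kif11, from -0.18 to 0.029 for Tpx2 and from -0.18 to 0.019 for Ttk. The cause was not tested. The class medians moved by less than the SD between libraries under all settings run. For left-out libraries this bound says little about stability. Leaving out a library moves its group mean by only part of that library's deviation, so the bound could hardly be exceeded. Across left-out libraries the G2/M median ran from -0.16 to -0.0046 and the S-phase median from 0.014 to 0.13. FPKM without read numbers give no counting error for low genes such as Cdc6.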
